A study of Homo sapiens with 12 samples.

Results

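The genes described here are 7 transcription factors and 3 markers of the mesenchymal state: PRRX1, ZEB1, ZEB2, SNAI1, SNAI2, TWIST1 and TWIST2, and VIM, CDH2 and CAV1. They were taken as all probes that the platform annotation assigns to these symbols, which gave 15 probes for 10 of the 20042 genes named on the array. Their values were read in MDA-MB-231, a human breast cancer cell line of mesenchymal shape whose p53, a tumour suppressor, is mutated. Cells given p53 siRNA with tumour necrosis factor (TNF), p53 siRNA without TNF, control siRNA with TNF, and control siRNA without TNF formed 4 groups of 3 Illumina bead arrays of total RNA. All groups were transfected and, after 48 h, moved from 10% to 0.1% serum for 20 h, during which the TNF groups received 10 ng/ml of the cytokine. The replicates are labelled biological, with no culture or batch given, so each p-value rests on the spread of the arrays alone.

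In the epithelial to mesenchymal transition, epithelial cells give up their junctions and take on a migratory form. The zinc finger factors ZEB1, ZEB2, SNAI1 (Snail) and SNAI2 (Slug) bind E-box sequences and repress E-cadherin, the basic helix-loop-helix factors TWIST1 and TWIST2 act beside them, and PRRX1 is a homeobox factor of embryonic mesenchyme that can also drive the transition. VIM encodes the intermediate filament protein vimentin and CDH2 encodes N-cadherin, both classical markers of the mesenchymal state, while CAV1 encodes caveolin-1, the coat protein of the membrane pits called caveolae, which is abundant in cells of this type. TNF signals to the nucleus mainly through the transcription factor NF-kB and is known to promote such transitions in several carcinoma lines.

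The promoters of PRRX1 and CAV1 are shown because these were the members with the largest called changes, in opposite directions. Each is 300 bases from RefSeq on build GRCh38.p14, running from 250 bases before the start site to 50 bases after it. Capitals mark matches to the NF-kB motif GGGRNNYYCC on either strand, where R is A or G, Y is C or T and N is any base.
PRRX1 promoter, chr1:170663881-170664180, plus strand: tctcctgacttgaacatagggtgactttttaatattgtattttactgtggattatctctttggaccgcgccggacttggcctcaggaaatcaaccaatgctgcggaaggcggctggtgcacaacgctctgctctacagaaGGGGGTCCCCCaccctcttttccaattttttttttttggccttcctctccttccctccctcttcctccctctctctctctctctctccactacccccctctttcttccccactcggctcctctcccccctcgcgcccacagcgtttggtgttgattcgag
CAV1 promoter, chr7:116524759-116525058, plus strand: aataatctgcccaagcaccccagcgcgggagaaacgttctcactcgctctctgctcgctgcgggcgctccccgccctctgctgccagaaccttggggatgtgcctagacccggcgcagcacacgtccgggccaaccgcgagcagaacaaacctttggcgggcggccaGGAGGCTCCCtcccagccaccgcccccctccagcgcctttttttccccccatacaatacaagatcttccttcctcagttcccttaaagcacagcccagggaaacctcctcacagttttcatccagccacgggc
The capitals in PRRX1 hold 2 overlapping matches and those in CAV1 hold 1. At least 1 match lay in 11.3% of the 35116 RefSeq promoter windows of this length. RefSeq gave 3 windows for CAV1, of which the second overlaps the window shown and holds the same match, and the third holds none. ZEB1 also had a match in 1 of its 7 windows, while the windows of ZEB2, TWIST2, VIM and CDH2 had none. The E-box CACCTG, read on both strands, lay in 20.6% of all windows and the wider E-box CANNTG, which includes CACCTG, in 68.7%. Neither E-box was in the PRRX1 window, the 3 CAV1 windows or the VIM window, whereas ZEB1 had CACCTG in 2 of its 7 windows. These matches describe letters in the windows only.

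Signals were background-corrected, quantile-normalised and put on a log2 scale, and a probe counted as detected on an array where the deposited detection p-value was under 0.05. Probes detected on at least 3 of the 12 arrays were tested with limma in a single fit of 4 group means, and calls were made where the two-sided p, adjusted by Benjamini-Hochberg over 12507 genes, was under 0.05. Of the 10 member genes, 6 passed this filter with 9 of the 15 probes. The other 4 genes could not be tested. SNAI1, TWIST1 and TWIST2 were not detected on any of the 12 arrays, with intensities of 143 to 187, 190 to 257 and 171 to 227, and CDH2 was detected only on replicate 3 of the untreated p53 siRNA group. Levels of these 4 transcripts were therefore not measurable here, and N-cadherin was not available as a marker. Array medians ranged from 226 to 266 and between 19810 and 21157 of 47322 probes were detected. Replicate 3 of the untreated p53 siRNA group stood apart from the other arrays, with correlations of 0.974 to 0.977 with the rest of its group and 551 genes that differed 2-fold or more from the mean of its group's other arrays, against 23 to 209 such genes on the remaining arrays. Results without it are given below for some members and list counts, not for all.

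**Figure D1:**
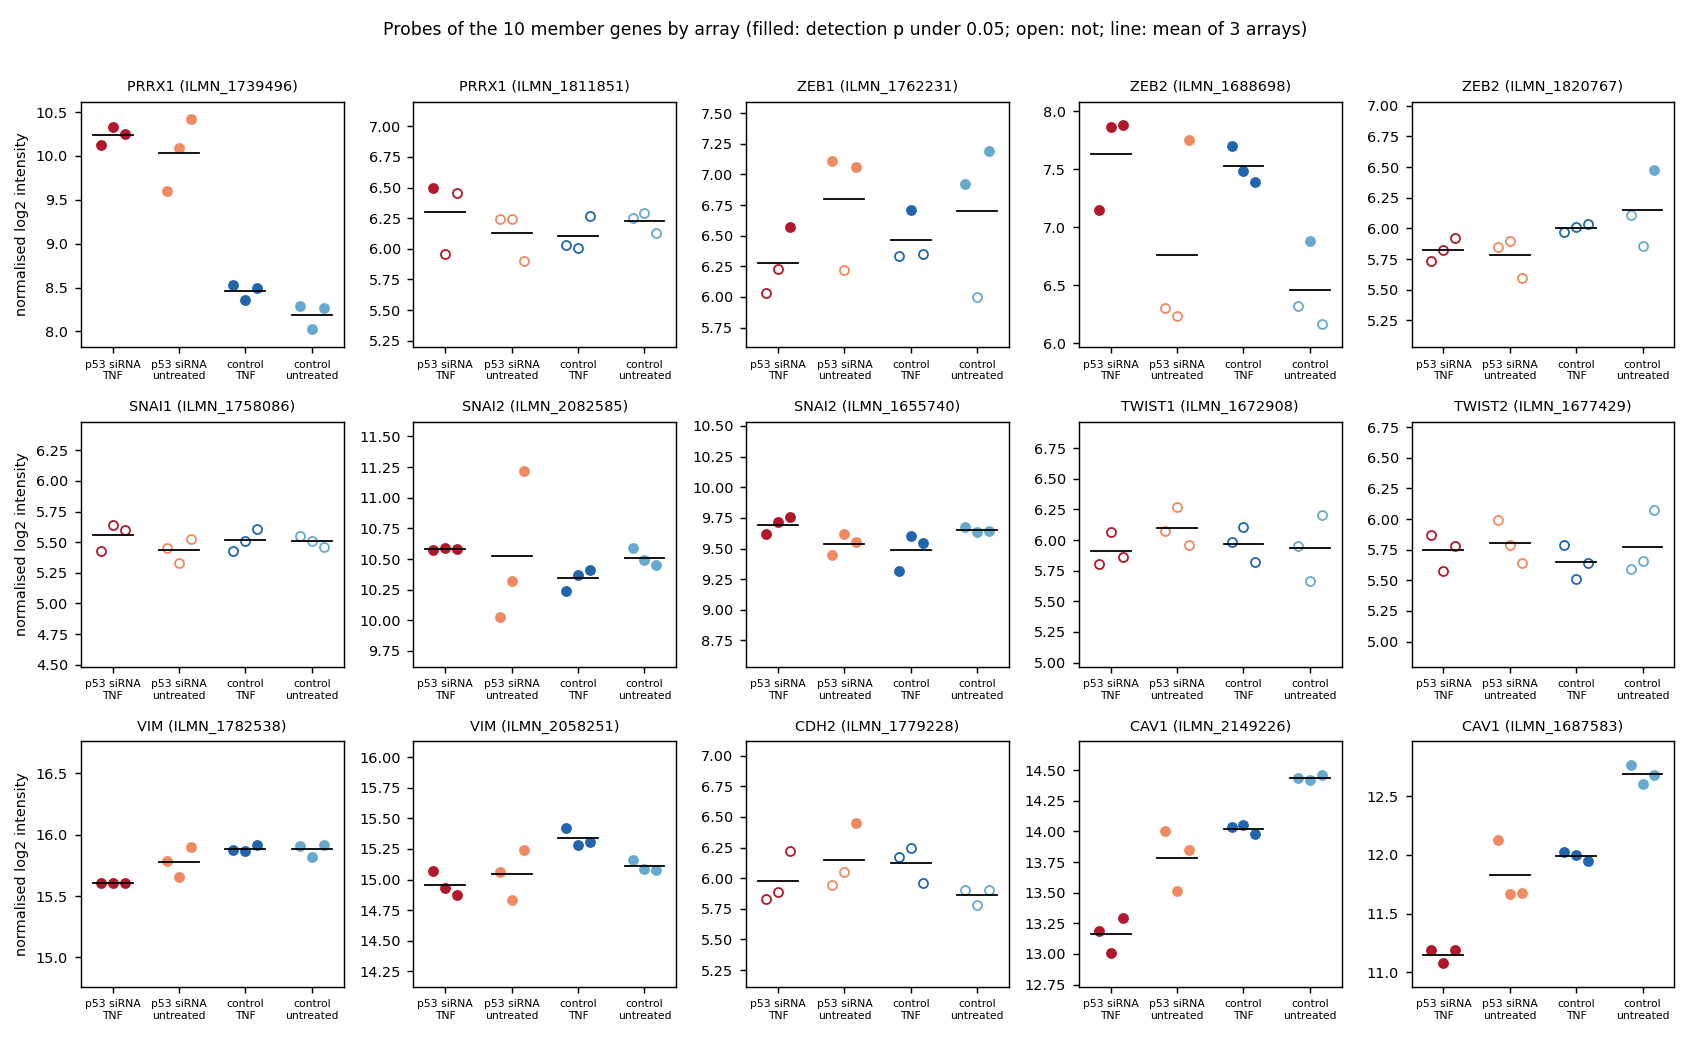
Normalised log2 intensity (vertical axis) of all 15 probes of the 10 genes on the 12 arrays, in the groups p53 siRNA TNF, p53 siRNA untreated, control siRNA TNF and control siRNA untreated; filled points were detected, open points were not, and lines are means of 3 arrays. The first PRRX1 probe lies between 9.60 and 10.42 on the p53 siRNA arrays and between 8.02 and 8.52 on the control siRNA arrays, and CAV1 is highest in untreated control siRNA cells on both probes.

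The labels identify the cells as MDA-MB-231, and 8 of 8 markers of this line with a named probe, among them VIM, CD44, AXL and CAV1, were detected on all 12 arrays. The defining luminal genes ESR1, PGR and CDH1 were not detected on any array. The same held for PTPRC and CD3E of leukocytes, CDH5, VWF and KDR of endothelium, and THY1 and PDGFRA of fibroblasts. Other genes of these lists were detected on all 12 arrays, namely XBP1, KRT19 and ERBB3 of the luminal list, CD68, CD14 and LYZ of the leukocyte list, PECAM1 of the endothelial list and PDGFRB of the fibroblast list. GATA3 was detected on 10 arrays and FOXA1 on 9. The summed intensity of the 8 MDA-MB-231 markers was 147231 to 179656 in p53 siRNA cells with TNF, 171379 to 199319 in untreated p53 siRNA cells, 212073 to 257871 in control siRNA cells with TNF and 231760 to 241291 in untreated control siRNA cells. These 8 markers include the members VIM and CAV1. Of the 8, 5 were called lower with p53 siRNA under each treatment (62.5%). Among all genes 17.9% were called lower with p53 siRNA in untreated cells and 16.5% under TNF. All 8 fibroblast markers also belong to the mesenchymal genes described below. Of the 5 tested, 3 were called higher and 1 lower with p53 siRNA under each treatment (80%). Calls in either direction were 35.6% of all genes in untreated cells and 30.9% under TNF. Without the array that stood apart, 2 fibroblast markers were called higher and 1 lower in untreated cells. The summed intensity of the 8 fibroblast markers was 2382 to 2683, 2225 to 2723, 2273 to 2781 and 2116 to 2163 in the 4 groups in the same order. That of the 7 leukocyte markers was 7885 to 9835, 8688 to 13591, 8938 to 11466 and 8515 to 9704, that of the 5 endothelial markers 1663 to 2058, 1438 to 1769, 1689 to 1942 and 1217 to 1278, and that of the 8 luminal markers 22282 to 26676, 27377 to 34006, 30727 to 37582 and 27086 to 29494. The part of such changes in the results below was not tested. All these sums add unnormalised intensities of the brightest probe of each gene, including probes that were not detected. Background signal is therefore part of them.

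PRRX1 was the transition factor with the clearest change, and it changed with the siRNA and not detectably with TNF. Its probe ILMN_1739496 read 10.12, 10.33 and 10.25 on the log2 scale in p53 siRNA cells with TNF, against 8.52, 8.36 and 8.49 in control siRNA cells with TNF. In untreated cells it read 9.60, 10.09 and 10.42 with p53 siRNA, against 8.29, 8.02 and 8.26 with control siRNA. Each p53 siRNA array was thus above each control siRNA array, while the untreated p53 siRNA arrays were the most widely spread. Total RNA cannot tell a larger share of cells with the transcript from more of it per cell. With p53 siRNA PRRX1 rose 3.59-fold in untreated cells, a log2 change of 1.84 ± 0.18 with an adjusted p of 1.43e-05 in limma (SE, n = 3 arrays each). The 95% interval of that fold ran from 2.75 to 4.68. Under TNF the rise was 3.43-fold, or 1.78 ± 0.18 on the log2 scale with an adjusted p of 2.16e-05 (n = 3 each).

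Among the 12507 genes tested, 31 rose more than PRRX1 with p53 siRNA in untreated cells and 45 under TNF. Without replicate 3 of the untreated p53 siRNA group the rise in untreated cells was 1.65 with an adjusted p of 3.12e-05. TNF shifted PRRX1 by 0.20 ± 0.18 in p53 siRNA cells (adjusted p of 0.569 in limma) and by 0.27 ± 0.18 in control siRNA cells (adjusted p of 0.445). The order of the group means was therefore p53 siRNA with TNF (10.24 ± 0.11), p53 siRNA untreated (10.03 ± 0.41), control siRNA with TNF (8.46 ± 0.09) and control siRNA untreated (8.19 ± 0.15; SD, n = 3 each). Only the step between the siRNAs was called. The TNF response difference, obtained by subtracting the TNF effect under control siRNA from that under p53 siRNA, was -0.07 with a 95% interval of -0.61 to 0.47 (adjusted p of 0.957). The other PRRX1 probe, ILMN_1811851, was detected on 1 array and gave no test, so the rise rests on a single probe.

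Across the genes, p53 siRNA changed many transcripts, and 2 of the 6 tested members were called in untreated cells, PRRX1 higher and CAV1 lower, against 35.6% of all genes tested. Under TNF 3 of the 6 were called with p53 siRNA, PRRX1 higher and CAV1 and VIM lower, against 30.9% of all genes. Scaling each array by its median in place of quantile normalisation moved the median of all genes by -0.15 in untreated and -0.16 in TNF-treated cells. It changed the share of higher calls among all calls to 24.7%, against 49.7% with quantile normalisation, in untreated cells, and to 18.8%, against 46.6%, under TNF. PRRX1 was still called under that scaling, at 1.69 and 1.57 on the log2 scale in untreated and TNF-treated cells.

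**Figure D2:**
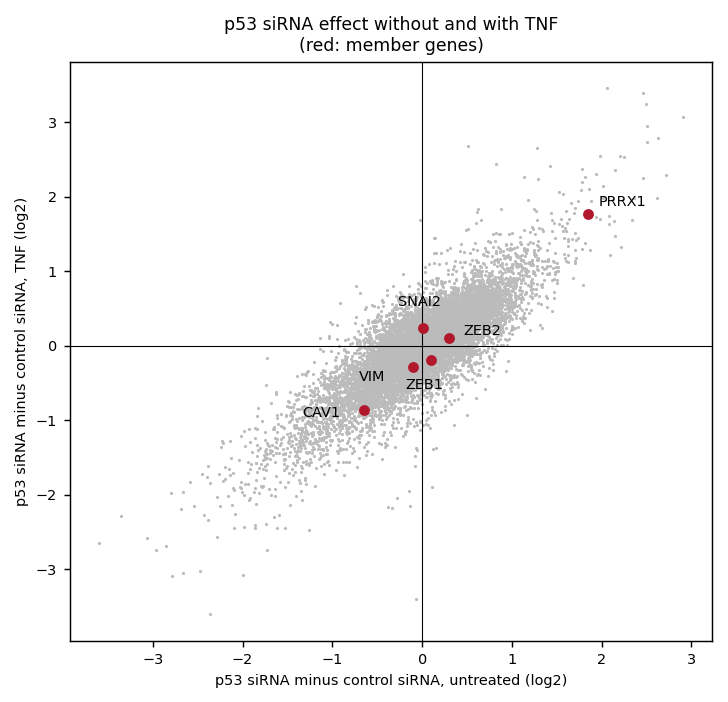
Log2 change with p53 siRNA relative to control siRNA in untreated cells (horizontal axis) and in TNF-treated cells (vertical axis) for the 12507 genes tested, with the 6 tested members in red. PRRX1 lies at 1.84 and 1.78, far up the cloud, and CAV1 at -0.65 and -0.86, while the other members lie near the centre.

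ZEB2 was the transition factor that differed most with TNF, at a level close to background. Its probe ILMN_1688698 was detected on all 3 arrays of each TNF group and on 1 of 3 arrays of each untreated group. It read 7.15, 7.87 and 7.88 in p53 siRNA cells with TNF, against 6.30, 6.23 and 7.75 in untreated p53 siRNA cells. In control siRNA cells it read 7.70, 7.49 and 7.39 with TNF, against 6.32, 6.88 and 6.17 without. The control siRNA groups did not overlap, and the p53 siRNA groups overlapped only through replicate 3 of the untreated group, the array that stood apart. The share of all genes whose groups did not overlap was not computed. The log2 differences with TNF were 0.87 ± 0.36 in p53 siRNA cells (adjusted p of 0.180 in limma, n = 3 each) and 1.07 ± 0.36 in control siRNA cells (adjusted p of 0.0886). Neither was called. Of the 8 arrays with ZEB2 detected, 6 were TNF arrays, so the probe passed the filter through the groups in which it is higher.

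Without that array ZEB2 was not detected in untreated p53 siRNA cells, on 0 of 2 arrays, so that only a bound could be given there. The bound set the TNF mean against the higher of the probe's own value and the lowest detected value on each of those arrays. By it ZEB2 was at least 2.23-fold higher with TNF in p53 siRNA cells, and this bound was not tested. In the limma fit without that array, the measured values (means 7.63 with TNF and 6.27 untreated) differed by 1.36 with an adjusted p of 0.00537. In control siRNA cells the same fit gave 1.07 with an adjusted p of 0.00907. The probe passed the filter through its TNF arrays here too, so these p-values add no support. Averaged over both siRNAs, the TNF effect on ZEB2 was 0.97 ± 0.25. This average was chosen after the values were seen, and the probe passed the filter through its TNF arrays, so it gives no further test. With p53 siRNA ZEB2 differed by 0.30 in untreated cells and 0.10 in TNF-treated cells, neither called, and the sign in TNF-treated cells turned under median scaling. The second ZEB2 probe, ILMN_1820767, was detected on 1 array, in untreated control siRNA cells, and gave no test.

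ZEB1 sat at the edge of detection and no difference in it was called. Its probe ILMN_1762231 was detected on 1 array of p53 siRNA cells with TNF, 2 of untreated p53 siRNA cells, 1 of control siRNA cells with TNF and 2 of untreated control siRNA cells. The group means were 6.28 ± 0.27, 6.80 ± 0.50, 6.47 ± 0.21 and 6.70 ± 0.63 in that order (SD, n = 3 each), and the groups overlapped in each comparison. The 95% interval of its TNF effect in p53 siRNA cells ran from -1.18 to 0.14 on the log2 scale, so a change of 2-fold downwards would not have been told from none.

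SNAI2 was detected on all 12 arrays by both of its probes and was not called in any comparison. Probe ILMN_2082585 read 10.57, 10.59 and 10.58 in p53 siRNA cells with TNF, 10.03, 10.32 and 11.22 in untreated p53 siRNA cells, 10.24, 10.37 and 10.41 in control siRNA cells with TNF, and 10.59, 10.49 and 10.45 in untreated control siRNA cells. The value of 11.22 is again replicate 3 of the untreated p53 siRNA group, and probe ILMN_1655740 read 9.55 on that array, within the 9.45 to 9.62 of its group. The probes thus disagree on that array. With p53 siRNA the SNAI2 change in untreated cells was 0.01 ± 0.23 (95% interval -0.49 to 0.50), and under TNF it was 0.24 ± 0.23 (-0.25 to 0.73). Without the array that stood apart, the first probe was called higher with TNF in p53 siRNA cells, at 0.41 (adjusted p of 0.0299 in limma). It was then also called lower with p53 siRNA in untreated cells, at -0.34 (adjusted p of 0.0278). Over all 12 arrays probe ILMN_1655740 gave 0.16 ± 0.11 and -0.11 ± 0.11 in these comparisons (adjusted p of 0.53 and 0.51 in limma), neither called. That probe was not refitted without the array.

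**Figure D3:**
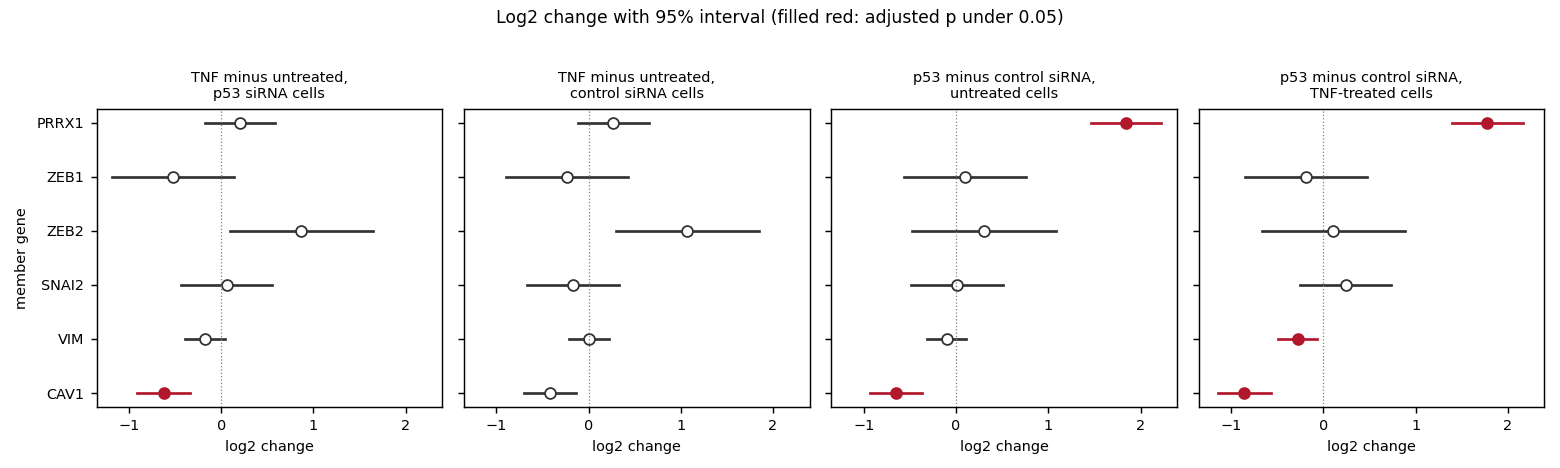
Log2 change with its 95% interval for the 6 tested members in 4 comparisons, each TNF minus untreated or p53 siRNA minus control siRNA; filled red points were called at an adjusted p under 0.05. PRRX1 is called only in the siRNA comparisons (1.84 and 1.78), CAV1 in 3 of the 4, and VIM in TNF-treated cells alone (-0.28).

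CAV1 fell with p53 siRNA under each treatment, and with TNF in p53 siRNA cells, on both of its probes. With TNF in control siRNA cells it was lower on both probes, and the test was passed by the second probe. Its probe ILMN_2149226 read 13.19, 13.01 and 13.30 in p53 siRNA cells with TNF, 14.00, 13.51 and 13.85 in untreated p53 siRNA cells, 14.03, 14.05 and 13.98 in control siRNA cells with TNF, and 14.43, 14.42 and 14.46 in untreated control siRNA cells. The combined group was the lowest and the untreated control siRNA group the highest. With p53 siRNA CAV1 fell 1.57-fold in untreated cells, a log2 change of -0.65 ± 0.13 with an adjusted p of 0.00227 in limma (n = 3 each). Under TNF it fell 1.81-fold with p53 siRNA, or -0.86 ± 0.13, with an adjusted p of 0.000446.

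In p53 siRNA cells TNF lowered CAV1 1.54-fold, or -0.62 ± 0.13 on the log2 scale, with an adjusted p of 0.0119 in limma (n = 3 each), and CAV1 was the only 1 of the 6 tested members called there, against 7.80% of all genes. That call was lost without replicate 2 of the TNF-treated p53 siRNA group (-0.54, adjusted p of 0.0634), under median scaling (-0.58, adjusted p of 0.0886) and when only the compared groups were fitted (adjusted p of 0.116). In control siRNA cells the CAV1 difference with TNF was -0.42 ± 0.13 with an adjusted p of 0.0704, and 0 of the 6 members were called by limma, against 9.59% of all genes. Before adjustment the limma p was 0.0110 for ZEB2 and 0.00776 for CAV1. The share of all genes with so low an unadjusted p was not computed. The ZEB2 probe passed the filter through its TNF arrays, so its p-value adds no support. Leaving out replicate 1, 2 or 3 of the untreated p53 siRNA group, which lies outside this comparison and enters only the shared spread, brought the adjusted p of CAV1 to 0.0386, 0.0250 and 0.0469.

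The second CAV1 probe, ILMN_1687583, was fitted with all 23079 kept probes and fell in each of the 4 comparisons. It read 11.19, 11.08 and 11.19 in p53 siRNA cells with TNF, 12.13, 11.67 and 11.68 in untreated p53 siRNA cells, 11.95 to 12.02 in the 3 arrays of control siRNA cells with TNF, and 12.77, 12.61 and 12.69 in untreated control siRNA cells. Its TNF effects were -0.67 ± 0.13 in p53 siRNA cells (adjusted p of 0.0120 in limma) and -0.70 ± 0.13 in control siRNA cells (adjusted p of 0.00858). Its p53 siRNA effects were -0.86 ± 0.13 in untreated cells (adjusted p of 0.000594) and -0.84 ± 0.13 under TNF (adjusted p of 0.000859). In the same fit the TNF effect of the first probe in control siRNA cells was -0.42 with a 95% interval of -0.72 to -0.12, which overlaps the -0.99 to -0.40 of the second, and the difference between the probes was not tested. The TNF response difference of CAV1 was -0.21 on the first probe (95% interval -0.61 to 0.20) and 0.02 on the second (-0.39 to 0.44), so a stronger TNF effect in p53 siRNA cells was not shown.

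**Figure D4:**
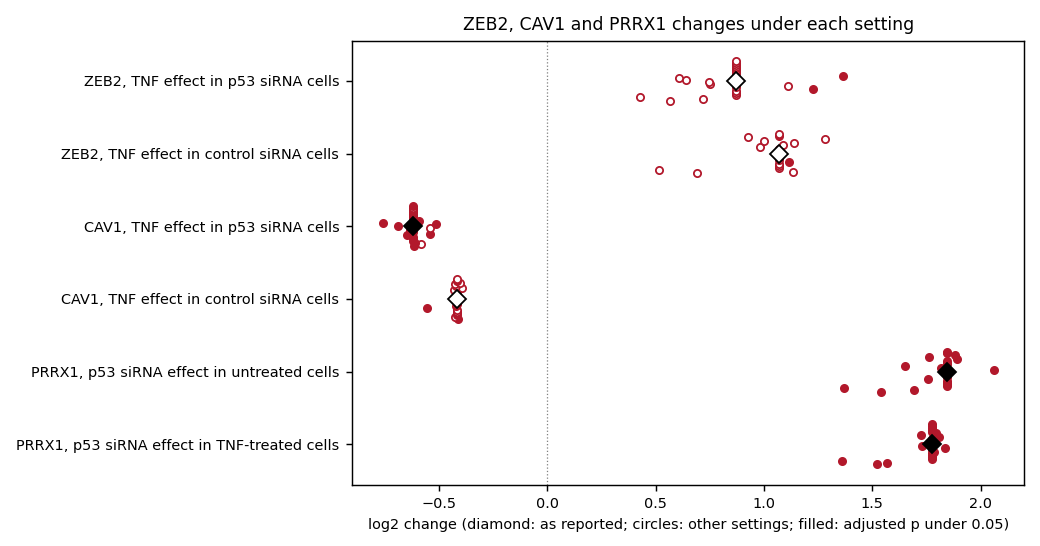
Log2 change of ZEB2 and CAV1 with TNF and of PRRX1 with p53 siRNA (horizontal axis) as reported (diamonds) and under each other processing setting or left-out array (circles); filled symbols had an adjusted p under 0.05. All PRRX1 symbols are filled and lie between 1.36 and 2.06, CAV1 changes sides of the threshold in control siRNA cells, and ZEB2 is called in few settings.

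VIM was bright on all arrays and changed little. Its probe ILMN_1782538 read 15.60, 15.61 and 15.61 in p53 siRNA cells with TNF, 15.79, 15.65 and 15.90 in untreated p53 siRNA cells, 15.87, 15.86 and 15.92 in control siRNA cells with TNF, and 15.91, 15.82 and 15.91 in untreated control siRNA cells. On this probe the p53 siRNA cells with TNF were below each other group. Probe ILMN_2058251 read 14.87 to 15.07 in p53 siRNA cells with TNF and 14.83 to 15.24 in untreated p53 siRNA cells, which overlap. With p53 siRNA VIM was called lower in TNF-treated cells, 1.21-fold or -0.28 ± 0.10 on the log2 scale, with an adjusted p of 0.0465 in limma (n = 3 each). The second probe, ILMN_2058251, gave -0.38 ± 0.13 in the same comparison, with an adjusted p of 0.0489 over all kept probes, where the first probe had 0.0777 and was not called. In untreated cells the p53 siRNA difference was -0.10 ± 0.10 and not called. The call under TNF was close to the threshold and was lost in 9 of the 12 fits that left out an array, with adjusted p up to 0.131, and in 4 of 11 other settings, among them median scaling (adjusted p of 0.0508). The first probe read 60.0% to 89.7% of each array's highest intensity, with 84 to 191 probes brighter, and whether the signal still responded in proportion there was not tested.

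The TNF response difference was called for 0 of the 6 tested members by limma, against 0.216% of all genes. On the probe standing for each gene, the lowest unadjusted limma p among the 6 was 0.217, for VIM. In the fit over all kept probes, SNAI2 probe ILMN_1655740 gave 0.32 with an unadjusted limma p of 0.0721 (adjusted p of 0.565). VIM probe ILMN_2058251 gave -0.32 there, with an unadjusted limma p of 0.102 (adjusted p of 0.61). Neither was called. The widest intervals were those of ZEB2, -1.30 to 0.90, and ZEB1, -1.22 to 0.65 on the log2 scale. Other intervals were narrower, as that of VIM at -0.48 to 0.12. A difference in TNF response between the siRNAs was thus not detected for these genes.

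By the rule of smallest root mean square distance over the 12 arrays, each gene centred on its own mean, the genes most like PRRX1 were H2BC5 at 0.158 log2 units, SLC5A3 at 0.216 and H4C8 at 0.227. H2BC5 and H4C8 encode histones and SLC5A3 a myo-inositol transporter. Those most like CAV1 were CKAP2 at 0.0663, PAICS at 0.120 and GALNT6 at 0.121, a cytoskeleton-associated protein, an enzyme of purine synthesis and an enzyme of O-glycosylation. For VIM they were CGGBP1 at 0.0509, SYDE1 at 0.0656 and ISY1 at 0.0678. These distances share the arrays and describe likeness only.

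Other mesenchymal genes, mostly matrix proteins and their receptors, were called higher with TNF more often than lower, while p53 siRNA moved them in both directions. With TNF 5 of the 25 tested were called in p53 siRNA cells, all higher, and 8 in control siRNA cells, 7 higher and 1 lower. Among all genes 3.95% were called higher and 3.85% lower with TNF in p53 siRNA cells, and 4.89% and 4.69% in control siRNA cells. TNC, which encodes the matrix glycoprotein tenascin-C, rose by 1.15 ± 0.12 in p53 siRNA cells and 0.84 ± 0.12 in control siRNA cells on the log2 scale. The other TNC probe gave 0.796 and 0.454 in p53 siRNA and control siRNA cells. LOX, the collagen cross-linking enzyme lysyl oxidase, rose by 0.95 ± 0.19 and 1.24 ± 0.19, and LUM, the proteoglycan lumican, by 0.82 ± 0.20 and 1.11 ± 0.20 in the same cells. The LUM call in p53 siRNA cells was lost under median scaling (0.76, adjusted p of 0.140 in limma). With p53 siRNA 14 were called in untreated cells, 5 higher and 9 lower, and 14 under TNF, 6 higher and 8 lower, where 17.7% of all genes were called higher and 17.9% lower in untreated cells and 14.4% and 16.5% under TNF. LUM rose by 1.74 ± 0.20 and LOX by 1.72 ± 0.19 in untreated cells with p53 siRNA, whereas the secreted glycoprotein gene FSTL1 changed by -1.86 ± 0.21. Under TNF LUM rose by 1.45 ± 0.20, FSTL1 changed by -1.90 ± 0.21, and PDGFRB, a receptor of platelet-derived growth factor, fell by 1.64 ± 0.24 with p53 siRNA. The median change of the list was 0.17, 0.14, -0.09 and -0.17 for TNF in p53 siRNA and control siRNA cells and for p53 siRNA in untreated and TNF-treated cells, against -0.01, -0.01, 0.01 and 0.01 for all genes. Without the array that stood apart, TNF in p53 siRNA cells called 7 higher and 3 lower. Under median scaling it called 2 higher, TNF in control siRNA cells called 5 higher and 1 lower, and p53 siRNA under TNF called 3 higher and 10 lower.

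Of 33 epithelial genes with a named probe 18 were tested, and CDH1, which encodes E-cadherin and is the classical target of the repressing factors, was not detected on any array, while 12 of the 33 were detected on all 12 arrays. With TNF 6 of the 18 were called in p53 siRNA cells (33.3%, against 7.80% of all genes), 1 higher and 5 lower, and 2 in control siRNA cells (11.1%, against 9.59%), 1 in each direction. CLDN1, the tight junction protein claudin-1, rose by 2.36 ± 0.22 in p53 siRNA cells and 2.48 ± 0.22 in control siRNA cells, while the keratin gene KRT8 fell by 0.70 ± 0.13 and 0.74 ± 0.13. PKP2, which encodes the desmosomal protein plakophilin-2, fell by 0.78 ± 0.18 with TNF in p53 siRNA cells, a call lost under median scaling. With p53 siRNA 3 were called in untreated cells (16.7%, against 35.6% of all genes), 1 higher and 2 lower, and 7 under TNF (38.9%, against 30.9%), all lower. Median scaling gave 5 and 9, all lower. ELF3, an epithelial transcription factor, fell by 1.37 ± 0.24 in untreated cells and 0.84 ± 0.24 under TNF with p53 siRNA, where it was detected on 1 of 3 arrays. JUP, which encodes plakoglobin, rose by 0.66 ± 0.14 in untreated cells, a call lost under median scaling, and KRT8 fell by 0.48 ± 0.13. Under TNF PKP2 fell by 0.68 ± 0.18 and the mucin gene MUC1 by 0.83 ± 0.26 with p53 siRNA. Without the array that stood apart, TNF in control siRNA cells called 2 higher and 3 lower. In that fit p53 siRNA called 2 higher and 3 lower in untreated cells, and 9 lower under TNF. The list medians were -0.18, 0.00, -0.11 and -0.34 in the order given for the mesenchymal genes.

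Partners and regulators of the factors, which include their co-repressors, dimer partners and the proteins that degrade them, had calls in both directions. Of the 30 tested, 1 was called with TNF in p53 siRNA cells (3.33%, against 7.80% of all genes) and 3 in control siRNA cells (10%, against 9.59%). HMGA2, a chromatin protein that can raise SNAI1 and TWIST1, was higher in each, by 0.67 ± 0.13 and 0.75 ± 0.13. The other HMGA2 probe gave 0.935 in p53 siRNA cells and 0.246 in control siRNA cells. EZH2, a histone methyltransferase, fell by 0.76 ± 0.15 with TNF in control siRNA cells, and the acetyltransferase gene KAT2B by 0.58 ± 0.13, a call lost under median scaling. With p53 siRNA 12 were called in untreated cells (40%, against 35.6%), 8 higher and 4 lower, and 13 under TNF (43.3%, against 30.9%), 10 higher and 3 lower. Median scaling turned these splits to 4 higher and 6 lower, and 2 higher and 6 lower. TCF3, a dimer partner of the TWIST factors, rose by 1.14 ± 0.17 in untreated cells and 1.05 ± 0.17 under TNF. The inhibitors of such dimers moved apart, with ID1 lower by -1.35 ± 0.23 and ID3 higher by 1.68 ± 0.29 in untreated cells. Under TNF ID1 changed by -1.37 ± 0.23 and ID3 by 0.91 ± 0.29, and the ID3 call was lost under median scaling and with the authors' processed values. The other ID1 probe gave -1.14 in untreated cells and -0.56 under TNF. Without the array that stood apart, TNF called 1 higher and 2 lower in p53 siRNA cells and 2 higher and 6 lower in control siRNA cells. The list medians were -0.15, -0.06, 0.10 and 0.20, and under median scaling those of the siRNA comparisons became -0.10 and -0.02.

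Caveola genes other than CAV1 included calls in both directions with p53 siRNA. Of the 15 tested, 7 were called in untreated cells (46.7%, against 35.6% of all genes), 2 higher and 5 lower, and 8 under TNF (53.3%, against 30.9%), 1 higher and 7 lower. Median scaling gave 2 higher and 8 lower in untreated cells and 8 under TNF, all lower. CAVIN2, a coat protein of caveolae, fell by 1.11 ± 0.14 in untreated cells and 1.47 ± 0.14 under TNF with p53 siRNA, and with TNF by 1.33 ± 0.14 in p53 siRNA cells and 0.97 ± 0.14 in control siRNA cells. EHD4, a membrane-shaping ATPase, fell by 1.34 ± 0.14 and 1.30 ± 0.14 with p53 siRNA. PACSIN3, a membrane-bending protein, fell by 1.06 ± 0.15 with p53 siRNA under TNF. CAVIN4, a further caveola coat protein, rose by 0.75 ± 0.22 with p53 siRNA in untreated cells and by 0.77 ± 0.22 with TNF in control siRNA cells. It was detected on 1 of 3 untreated control siRNA arrays, its TNF call was lost under median scaling and with the authors' processed values, and its p53 siRNA call was lost without the array that stood apart (0.54, adjusted p of 0.0646 in limma). FLOT1, a flotillin, fell by 0.78 ± 0.15 with TNF in control siRNA cells. With TNF 1 gene of the list was called in p53 siRNA cells (6.67%, against 7.80% of all genes), and 4 in control siRNA cells (26.7%, against 9.59%), 2 in each direction, and these counts became 4 lower in p53 siRNA cells and 4 in each direction in control siRNA cells without the array that stood apart. Under median scaling TNF called 1 lower in p53 siRNA cells and 2 lower in control siRNA cells. The list medians were -0.22, 0.06, -0.18 and -0.30.

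Of 12 cadherin and catenin genes tested, 4 were called with p53 siRNA in untreated cells, 1 higher and 3 lower, and 4 under TNF, all lower. Each is 33.3% of the list, close to the 35.6% and 30.9% of all genes. The protocadherin gene PCDH7 fell, with changes of -2.12 ± 0.23 and -2.14 ± 0.23, and VCL, which encodes the junction and focal adhesion protein vinculin, by 0.49 ± 0.10 and 0.93 ± 0.10. PKP4, an armadillo-repeat protein of junctions, changed by -0.61 ± 0.12 in untreated cells, while its other probe gave 0.43. NECTIN2, a cell adhesion molecule, changed by -0.45 ± 0.15 under TNF, while its other probes gave -0.51 and 0.87. With TNF 1 gene was called in each siRNA group (8.33%, against 7.80% and 9.59% of all genes), and neither call held under median scaling. They were VCL in p53 siRNA cells, at -0.38 ± 0.10, and PCDH1 in control siRNA cells. PCDH1 was not detected on any of the 3 TNF arrays there and was at least 1.07-fold lower with TNF, a bound that was not tested. Its call came from the measured values, at -0.63 ± 0.18 with an adjusted p of 0.0481 in limma. Their means were 5.88 with TNF and 6.51 untreated, where it was detected on 2 of 3 arrays.

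Of 12 other genes of the intermediate filament network tested, 6 were called lower with TNF in p53 siRNA cells (50%, against 7.80% of all genes) and 5 in control siRNA cells (41.7%, against 9.59%). KRT8 and KRT18 are in this list and in the epithelial list, so the counts of these lists are not separate. NES, the filament protein nestin, fell by 0.89 ± 0.17 and 1.15 ± 0.17, and the keratin KRT7 by 0.86 ± 0.16 and 0.81 ± 0.16. The keratin KRT80 changed by -1.37 ± 0.17 with TNF in p53 siRNA cells and was also called lower in control siRNA cells. With p53 siRNA 9 were called in untreated cells (75%, against 35.6%), 3 higher and 6 lower, and 8 under TNF (66.7%, against 30.9%), 1 higher and 7 lower. Under median scaling there were 7 and 8 calls, all lower. Without the array that stood apart, TNF called 8 lower in p53 siRNA cells and 6 lower in control siRNA cells. Under TNF p53 siRNA then called 1 higher and 8 lower. With p53 siRNA KRT80 changed by -1.14 ± 0.17 and -1.51 ± 0.17 and KRT7 by -1.07 ± 0.16 and -1.13 ± 0.16 in untreated and TNF-treated cells. LMNB1, which encodes lamin B1 of the nuclear lamina, changed by -1.31 ± 0.18 in untreated cells and -0.95 ± 0.18 under TNF. The medians of the cadherin list were -0.15, -0.10, -0.15 and -0.09, and those of the filament list were -0.48, -0.31, -0.46 and -0.42.

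**Figure D5:**
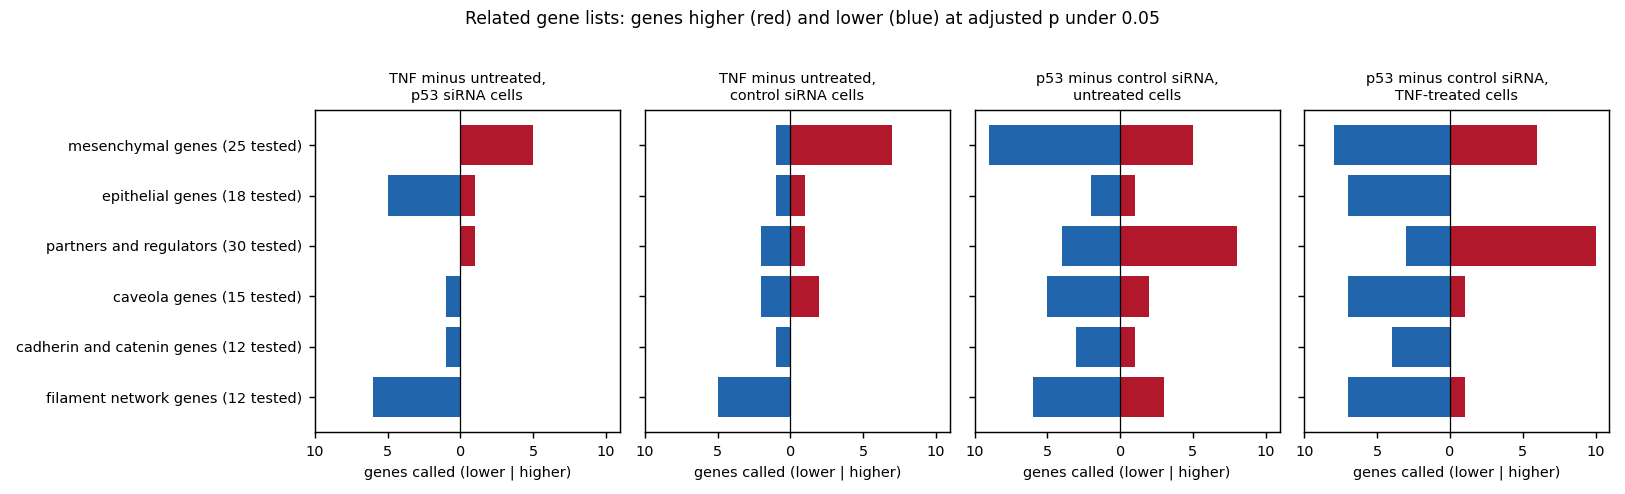
Number of genes called higher (red, right) and lower (blue, left) at an adjusted p under 0.05 in 6 lists of related genes, for TNF minus untreated and for p53 siRNA minus control siRNA. KRT8 and KRT18 are in both the epithelial and the filament list. TNF calls in the filament list are all lower (6 and 5 of 12), and p53 siRNA calls in the list of partners and regulators are mostly higher (8 and 10), a split that turns under median scaling.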

How the data were processed

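Per the file headers, each of the 12 arrays has an intensity and a detection p-value for 47322 probes in the deposited signal table. The submitters' processing notes name GenomeStudio. The sources used here do not say how the authors obtained the detection p-values. The authors also deposited a table of processed intensity values for 47313 probes, with a median of 241.6 in each column. Its normalisation is unknown, and it served as an alternative only. Arrays were grouped by their labels.

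Background correction and quantile normalisation were done with neqc (limma 3.58.1, R 4.3.3; offset of 16), followed by log2. Probes with detection p under 0.05 on at least 3 of 12 arrays were kept (23079). The platform annotation names 1 gene for 30107 probes. The kept probe with the highest mean stood for a gene, and other probes were tested in a fit over all kept probes. A linear model of 4 group means (lmFit, eBayes, 8 residual and 4.03 prior degrees of freedom) gave 5 comparisons, adjusted by Benjamini-Hochberg over 12507 genes, with standard errors beside log2 changes. Simulated data with known changes were used to test the fit. The siRNA's own target is not reported here, and its depletion was not checked.

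The members, the gene lists, the tests and the rule for naming genes were chosen with earlier results of these data known. That rule named all member probes, up to 3 called genes per list and comparison with the largest change, and the 3 genes nearest to each called member over the 12 arrays. Promoter windows came from RefSeq (GRCh38.p14), matched by symbol for 7 of the 10 members. Same-numbered arrays of different groups were not paired, since their deviations correlated above 0.1 in 1 of 12 pairs. The files give no slide or scan batch, so a batch could not be fitted. With 3 arrays a group, the number of arrays limits the precision.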

Additional observations from a re-analysis of the deposited data

How the results depend on the processing

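Over 23 other settings or left-out arrays, 902 member values and counts of calls were compared with those reported, and 798 were kept. A member value was kept if its direction and side of the threshold held, and a count if it stayed within 1.5 times. Of the rest, 16 lost a call, 15 gained a call and 29 values changed sign. The other 44 were counts that moved by over 1.5 times or to or from 0. No value of PRRX1 or CAV1 with p53 siRNA changed sign or lost its call. CAV1 with TNF in p53 siRNA cells lost its call under median scaling (-0.58) and with the compared groups only (-0.62), and lay between -0.76 and -0.52 when single arrays were left out. In control siRNA cells it gained a call with normexp (-0.41), the authors' processed values (-0.42), the mean of probes (-0.56), array weights (-0.42) and compared groups only (-0.42), and lay between -0.43 and -0.40 with arrays left out. Members called with TNF in p53 siRNA cells were 0 under median scaling and compared groups only, 2 with array weights, and 0 to 3 with arrays left out, against 1. In control siRNA cells they were 1 with normexp, the authors' values, the mean of probes and every probe on its own, 2 with array weights and compared groups only, and 0 to 2 with arrays left out, against 0. All genes called with TNF in p53 siRNA cells were 542 under median scaling, 310 with compared groups only and 557 to 1717 with arrays left out, against 976, and in control siRNA cells 793 under median scaling, 2215 with array weights and 736 to 1894 with arrays left out, against 1199. With arrays left out, both of these highest counts came without replicate 3 of the untreated p53 siRNA group. With p53 siRNA in untreated cells compared groups only called 2954, against 4458. For the TNF response difference counts were 12 under median scaling, 52 with the authors' values, 5 for probes detected on all 12 arrays, 44 at detection p under 0.01 and 11 to 132 with arrays left out, against 27, and the higher share of calls was 8.33% under median scaling and 50% with the authors' values, against 37%.

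The 29 sign changes were all among values not called as reported. With array weights they were VIM with TNF in control siRNA cells (-0.00063), SNAI2 (-0.18) and ZEB1 (-0.21) with p53 siRNA in untreated cells, and the TNF response differences of PRRX1 (0.027), ZEB1 (0.016) and ZEB2 (0.11). SNAI2 with p53 siRNA in untreated cells was -0.20 under median scaling and -0.052 as the mean of its probes, and ZEB2 with p53 siRNA under TNF was -0.057 under median scaling. With single arrays left out, the TNF effect in p53 siRNA cells ranged from -0.015 to 0.39 for PRRX1 and from -0.19 to 0.41 for SNAI2, and that in control siRNA cells from -0.026 to 0.022 for VIM and from -0.59 to 0.0051 for ZEB1. The p53 siRNA effect in untreated cells ranged from -0.34 to 0.26 for SNAI2, from -0.26 to 0.38 for ZEB1 and from -0.19 to 0.57 for ZEB2, and under TNF from -0.021 to 0.35 for ZEB2. The TNF response difference ranged from -0.28 to 0.12 for PRRX1, from -0.017 to 0.58 for SNAI2, from -0.57 to 0.071 for ZEB1 and from -0.46 to 0.29 for ZEB2. The cause of these changes was not tested.

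The replicate number as a block gave 17 calls for the TNF response difference, against 27, and VIM with p53 siRNA under TNF then had an adjusted p of 0.0584 in limma. It changed no other member's call. Replicate numbers were not taken to pair the arrays, since 1 of 12 same-numbered pairs correlated above 0.1 in their deviations, while 6 of 12 arrays correlated best with an array of their own number in another group. PRRX1 and ZEB2 rest on 1 kept probe each, ZEB1 and ZEB2 lie close to background, and the 4 untested members are below it, so small changes in these genes were not measurable.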
